A study of Mus musculus with 2 samples.

Results

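The FGF pathway genes described here are 38 mouse genes chosen by symbol: 22 FGF genes, 5 receptor genes and 11 feedback genes. The feedback genes are those whose products or transcripts follow ERK activity, the Sprouty, Spred, Dusp and Etv genes. All 38 were on the array, among 22485 named genes, through 92 features. RNA came from embryonic stem (ES) cells of the wild-type line V6.5 and from Utx knockout ES cells, whose labels also name V6.5. Utx, the product of Kdm6a on the X chromosome, is an enzyme that takes a repressive methyl mark off histones. Within each line, cells kept on gelatin with leukaemia inhibitory factor (LIF) were compared with cells given 100 nM retinoic acid (RA) in medium without LIF for 48 h. Loss of LIF and gain of RA cannot be told apart, and "after RA" below stands for both. How the knockout was made, and how many clones it stands for, is not given in the sources used here.

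Untreated RNA (Cy3) and RA-treated RNA (Cy5) of a line shared 1 dual-colour Agilent array, with 1 array per line. Each gene therefore has 2 values, a log2 ratio for V6.5 and a log2 ratio for Utx knockout cells. Cy5 over Cy3 is the likely direction of the ratio, going by the labelled dyes, so values above 0 are taken as more RNA after RA, and a ratio of 1 is 2-fold. The values have no replicate within a line, so neither a ratio of 1 line nor a difference between lines could be tested. The response that both lines share was tested with limma over both arrays. Both arrays carried the dyes the same way round, so a dye bias at a gene is part of its ratios. The ratio of Kdm6a itself was -0.39 in V6.5 and -0.16 in knockout cells, which compares treated with untreated cells and does not check the deletion. Ratios carry no level, so the presence of ES cell markers could not be checked. Of 14 markers of pluripotent ES cells, 0 rose and 3 fell in limma (1 and 9 at an unadjusted p under 0.05). Among all named genes, 8.93% rose and 7.93% fell in limma.

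FGF ligands bind receptor tyrosine kinases together with heparan sulfate, and the receptors signal through RAS, RAF and MEK to the kinase ERK. ERK induces its own inhibitors. Sprouty and Spred proteins hold back signalling between receptor and RAF, the Dusp phosphatases strip phosphate from ERK, and the ETS factors Etv4 and Etv5 are transcripts commonly used to read FGF activity. In mouse ES cells, Fgf4 made by the cells themselves drives ERK and readies them to leave naive pluripotency, while Fgf5 is a textbook mark of the epiblast-like state that follows.

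Of the 38 genes, 2 rose and 9 fell in the shared test at a Benjamini-Hochberg adjusted p under 0.05 (limma). The ligand Fgf5 and the receptor Fgfr2 rose. The ligands Fgf3, Fgf6, Fgf10 and Fgf17, the receptor Fgfr4, the inhibitors Spry2 and Spred2 and the factors Etv4 and Etv5 fell. Over all named genes, 8.93% rose and 7.93% fell, against 5.26% and 23.7% of the FGF pathway genes. The median ratio of the 38 was -0.10 in V6.5 and -0.05 without Utx, beside -0.02 and -0.02 for all named genes. With each array centred on the median of its features, 5 rose and 8 fell, against 11.1% and 7.84% of all named genes. Tested against a 1.5-fold change with limma's treat, 0 rose and 1 fell, Fgf17 (1 and 5 at an unadjusted p under 0.05), against 0.872% and 0.431% of all named genes. The test takes the lines as 2 samples of 1 response, and its p-values rest on the spread between these 2 arrays.

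**Figure D1:**
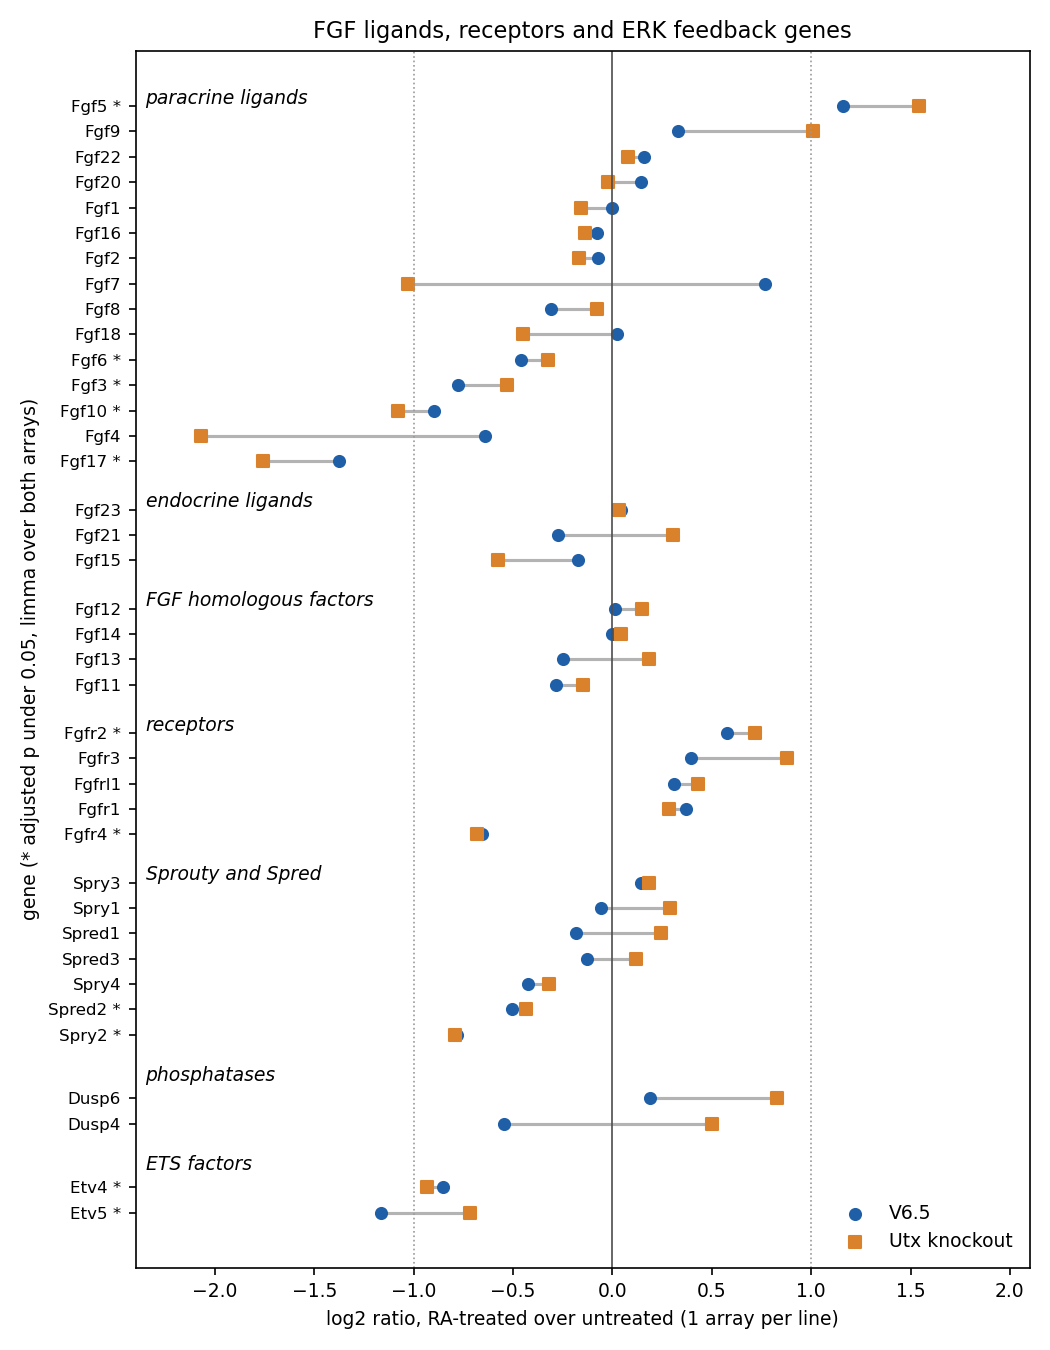
Log2 ratio, RA-treated cells over untreated ones (horizontal axis), for each of the 38 genes (vertical axis), grouped by role and sorted by the mean of both arrays. Circles are V6.5 and squares the Utx knockout, 1 array each, grey lines join the lines' values, dotted lines mark 2-fold and asterisks mark the 11 genes that passed the shared test. Fgf5 lies past 2-fold higher and Fgf17 past 2-fold lower on both arrays, while Fgf7 and Dusp4 lie on opposite sides of 0.

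The secreted ligands had unlike ratios within their sequence subfamilies. In the Fgf4, Fgf5 and Fgf6 subfamily, Fgf5 had a log2 ratio of 1.16 in V6.5 and 1.55 without Utx, which is 2.23-fold and 2.92-fold higher. It rose by 1.35 ± 0.12 (moderated SE, n = 2 arrays; adjusted p = 0.0134 in limma). Among all named genes, 1.85% had a higher ratio in V6.5 and 1.26% in the knockout. Fgf4 stood at the other end, at -0.64 in V6.5 and -2.07 without Utx. It was 1.56-fold and 4.20-fold lower, so both lines were below 0 but far apart, and it did not pass (adjusted p = 0.0825 in limma). Fgf6, a ligand of skeletal muscle, had -0.46 and -0.32 and fell narrowly, with an adjusted p of 0.0497 in limma that became 0.0527 with median centring.

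Starts of the genes are printed for sister ligands with opposite ratios, Fgf4 and Fgf5. They are RefSeq promoters of build GRCm38.p6, 250 bases before to 50 after the start, read 5′ to 3′ along the gene: chr7:144861136-144861435 on the plus strand for Fgf4 and chr5:98253934-98254233 on the plus strand for Fgf5. Capitals mark matches to 3 motifs searched on both strands, AGGTCA (the half-site of retinoid receptors), GGGTCA (a variant of it) and CGGAAG (a core of ETS sites).
Fgf4: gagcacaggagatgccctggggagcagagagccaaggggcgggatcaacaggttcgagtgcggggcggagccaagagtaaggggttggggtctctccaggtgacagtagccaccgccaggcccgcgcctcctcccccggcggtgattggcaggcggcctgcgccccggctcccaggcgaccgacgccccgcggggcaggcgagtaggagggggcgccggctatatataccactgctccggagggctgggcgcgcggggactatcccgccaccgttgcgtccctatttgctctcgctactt
Fgf5: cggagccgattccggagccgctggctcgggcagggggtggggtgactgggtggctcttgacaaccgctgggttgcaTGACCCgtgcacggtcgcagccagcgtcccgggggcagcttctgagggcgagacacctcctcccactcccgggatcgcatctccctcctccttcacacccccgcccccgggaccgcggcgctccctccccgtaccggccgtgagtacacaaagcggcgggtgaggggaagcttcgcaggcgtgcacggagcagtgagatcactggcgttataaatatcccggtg
Fgf4 held no match to these letters in this window. Fgf5 held GGGTCA once, read as TGACCC, beginning 174 bases before the start.

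In the Fgf8, Fgf17 and Fgf18 subfamily, which patterns the midbrain and the primitive streak, Fgf17 had the lowest mean of all 38 genes. Its ratios were -1.38 in V6.5 and -1.76 without Utx, 2.60-fold and 3.39-fold lower. It fell by 1.57 ± 0.12 on the log2 scale (adjusted p = 0.0112 in limma), and 0.569% and 0.302% of named genes had a lower ratio on these arrays. This was also the gene that passed against 1.5-fold with treat (adjusted p = 0.0497). Its relatives did not pass: Fgf8 had -0.31 and -0.08, and Fgf18 had 0.02 and -0.45, with adjusted p of 0.236 and 0.358 in limma.

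In the Fgf3, Fgf7, Fgf10 and Fgf22 subfamily, whose best-known members Fgf7 and Fgf10 pass from stroma to epithelia, Fgf10 and Fgf3 fell. Fgf10 had -0.90 in V6.5 and -1.08 without Utx, a fall of 0.99 ± 0.09 (adjusted p = 0.0130 in limma). Fgf3, a ligand of the early otic region and hindbrain, had -0.78 and -0.53 and fell by 0.66 ± 0.10 (adjusted p = 0.0275 in limma). Fgf7 had 0.77 in V6.5 and -1.03 without Utx, and Fgf22 had 0.16 and 0.08. So 2 of these ligands were lower in both lines and Fgf7 lay on opposite sides of 0. Fgf10 and Fgf7 are also made by fibroblasts, and fibroblast markers moved on these arrays. Of 15 such markers, 10 fell and 0 rose in limma (11 and 0 at an unadjusted p under 0.05). Among all named genes, 7.93% fell and 8.93% rose in limma. The ratios of these markers ran from -1.95 to 0.02 in V6.5 and from -2.63 to 0.25 without Utx. Col1a2 had -1.25 and -1.69, and S100a4 -1.95 and -2.63. Fgf7 lay above the range of these markers in V6.5 (0.77) and within it without Utx (-1.03). The part of fibroblasts in the ratios of Fgf10 and Fgf7 was not tested. In bulk RNA, fewer cells of a type and less RNA per cell cannot be told apart.

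The start of Fgf10, the ligand measured by the most features among those that fell, lies at chr13:118714449-118714748 on the plus strand (RefSeq, GRCm38.p6), with capitals as above.
Fgf10: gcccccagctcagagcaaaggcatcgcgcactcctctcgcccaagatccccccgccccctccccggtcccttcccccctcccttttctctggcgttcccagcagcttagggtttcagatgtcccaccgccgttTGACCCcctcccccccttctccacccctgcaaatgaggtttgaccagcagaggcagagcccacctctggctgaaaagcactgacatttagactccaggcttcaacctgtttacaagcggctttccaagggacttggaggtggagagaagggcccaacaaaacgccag
It held GGGTCA once, read as TGACCC, beginning 117 bases before the start. Of all 32851 promoters of this length, 13.7% held this motif.

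The ligands of the Fgf9, Fgf16 and Fgf20 subfamily and of the Fgf1 and Fgf2 pair did not pass. Fgf9 had 0.33 in V6.5 and 1.01 without Utx, 1.26-fold and 2.02-fold higher, with an adjusted p of 0.0878 in limma. Fgf16 had -0.08 and -0.14, and Fgf20 had 0.14 and -0.02. Fgf2, the ligand most often added to cultured cells, had -0.07 and -0.17 over 10 features. Fgf1 had -0.00 and -0.16. Apart from Fgf9, these ligands stayed within 0.17 of 0 on either array.

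The endocrine ligands, which need a Klotho protein to bind their receptors, did not pass (1 of 3, Fgf15, was below 0 at an unadjusted p under 0.05 in limma). Fgf15, a gut hormone in the adult, had -0.18 in V6.5 and -0.58 without Utx. Fgf21 had -0.27 and 0.30, and Fgf23, the phosphate-regulating hormone, 0.04 and 0.03. Fgf3, Fgf4 and Fgf15 follow each other on chromosome 7 with 0 coding genes between them in the RefSeq order. All 3 had ratios below 0 on both arrays, though Fgf3 alone of them passed, and this grouping was made after their values were seen. Fgf6 and Fgf23 on chromosome 6 also have 0 coding genes between them, and their ratios were unlike. Fgf6 fell, with -0.46 and -0.32, while Fgf23 had 0.04 and 0.03.

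The FGF homologous factors, which stay inside the cell and bind sodium channels rather than receptors, had small ratios. Fgf11 had -0.29 and -0.15, Fgf12 0.01 and 0.15, Fgf13 -0.25 and 0.19, and Fgf14 -0.00 and 0.04. In limma 0 of these 4 passed, and 0 had an unadjusted p under 0.05, with adjusted p from 0.150 to 0.889.

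The receptors split, with 4 above 0 and Fgfr4 below 0 on both arrays. Fgfr2 had 0.58 in V6.5 and 0.71 without Utx, 1.49-fold and 1.64-fold higher, and rose by 0.65 ± 0.08 (adjusted p = 0.0210 in limma). Fgfr4 had -0.66 and -0.68 and fell by 0.67 ± 0.07 (adjusted p = 0.0172 in limma). Both lines lay close together for these receptors, at a difference of 0.14 for Fgfr2 and -0.03 for Fgfr4. Fgfr1, the main receptor of ES cells, had 0.37 and 0.28 (adjusted p = 0.0621 in limma). Fgfr3, a receptor of neural progenitors and cartilage, had 0.40 and 0.88 (adjusted p = 0.0568). Fgfrl1, which lacks the kinase domain, had 0.31 and 0.43 (adjusted p = 0.0522). These 3 did not pass as deposited and did pass with median centring, at adjusted p of 0.0462, 0.0417 and 0.0389. With the median of features Fgfr1 was further from passing (adjusted p = 0.110 in limma). Its 3 features ranged from 0.16 to 0.57 in V6.5 and from 0.11 to 0.55 without Utx. The files do not give probe positions, so the epithelial and mesenchymal splice forms of the receptors are not separated.

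Of the 11 feedback genes, 4 fell and 0 rose in limma, beside 7.93% and 8.93% of all named genes. At an unadjusted p under 0.05 the counts of feedback genes were 5 and 1. Both ETS factors fell, 2 of 7 Sprouty and Spred genes fell and 0 of the 2 phosphatase genes passed (1, Dusp6, at an unadjusted p under 0.05). Etv5 had -1.17 in V6.5 and -0.72 without Utx and fell by 0.94 ± 0.13 (adjusted p = 0.0263 in limma). Etv4 had -0.85 and -0.93 and fell by 0.89 ± 0.08 (adjusted p = 0.0122). The 2 lines lay close together for Etv4, while Etv5 was lower in V6.5.

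Spry2 had -0.78 in V6.5 and -0.79 without Utx, 1.72-fold and 1.73-fold lower, and fell by 0.79 ± 0.07 (adjusted p = 0.0142 in limma). Spred2 had -0.51 and -0.44 and fell by 0.47 ± 0.07 (adjusted p = 0.0315). Spry4 lay just short of the threshold, with -0.43 and -0.32 and an adjusted p of 0.0510, and it passed with both arrays scaled alike (adjusted p = 0.0490). Spry1 had -0.06 and 0.29, Spry3 0.14 and 0.19, Spred1 -0.18 and 0.24 and Spred3 -0.13 and 0.12. These 4 lay between -0.18 and 0.29, with adjusted p from 0.210 to 0.976 in limma.

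The starts of Spry2 and Spred2, the inhibitors that fell, lie at chr14:105896770-105897069 on the minus strand and at chr11:19924192-19924491 on the plus strand (RefSeq, GRCm38.p6), with capitals as above.
Spry2: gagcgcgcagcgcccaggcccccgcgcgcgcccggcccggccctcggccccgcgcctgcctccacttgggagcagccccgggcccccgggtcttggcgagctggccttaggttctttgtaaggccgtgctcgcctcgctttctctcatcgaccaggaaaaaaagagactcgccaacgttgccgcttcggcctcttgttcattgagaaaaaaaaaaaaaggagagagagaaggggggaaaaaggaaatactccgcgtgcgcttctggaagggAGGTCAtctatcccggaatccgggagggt
Spred2: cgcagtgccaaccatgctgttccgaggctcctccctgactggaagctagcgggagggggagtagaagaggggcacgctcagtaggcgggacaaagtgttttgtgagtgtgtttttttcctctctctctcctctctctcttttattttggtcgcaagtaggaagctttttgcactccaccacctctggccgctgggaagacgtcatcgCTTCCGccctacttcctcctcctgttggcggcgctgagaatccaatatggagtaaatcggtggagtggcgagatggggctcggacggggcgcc
Spry2 held AGGTCA once, beginning 21 bases past the start. Spred2 held CGGAAG once, read as CTTCCG, beginning 43 bases before the start. RefSeq promoters were at hand for 27 of the 38 genes, among them 9 of the 11 that passed. Of those 9, 2 held AGGTCA (Fgf6 and Spry2), 2 held GGGTCA (Fgf5 and Fgf10) and 1 held CGGAAG. Of all 27, passed or not, 4 held AGGTCA, 3 held GGGTCA and 6 held CGGAAG. Genes that did not pass thus held each motif too, such as Fgf7, Fgf23 and Dusp6 in that order. Over all promoters, 16.3%, 13.7% and 16.9% held these motifs. These shares count promoters, while the counts above are of genes, and the 27 genes had 35 promoters. A match is a stretch of letters and no measured binding.

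The phosphatases stood apart between the lines. Dusp6, which is specific for ERK in the cytoplasm, had 0.19 in V6.5 and 0.83 without Utx (adjusted p = 0.133 in limma). Dusp4, its nuclear relative, had -0.55 and 0.50 (adjusted p = 0.962). Neither passed, and both had the higher value in the knockout. In all, 10 of the 38 genes had ratios of opposite sign on the arrays, beside 24.4% of all named genes.

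The difference between the lines, taken as knockout minus V6.5, describes 1 array against 1 array. Fgf7 differed by -1.79 and Fgf4 by -1.43, and Dusp4 by 1.04. Among named genes, 0.0756% differed by more than Fgf7 in either direction, 0.258% by more than Fgf4 and 0.907% by more than Dusp4. Over all named genes, 0.583% had a knockout ratio at least 1 above and 0.467% at least 1 below that of V6.5, against 1 and 2 of the 38. Fgf9 (0.68), Dusp6 (0.64) and Fgf21 (0.58) came next above 0, and Fgf18 (-0.47) and Fgf15 (-0.40) next below it. Each of Fgf4, Fgf7, Fgf9, Dusp4, Dusp6 and Fgf21 rested on 1 feature.

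By role, the differences leaned in different directions. Of the 11 feedback genes, 9 had a higher ratio in the knockout than in V6.5. The median of the 11 was -0.43 in V6.5 and 0.12 without Utx, while the median of their differences gene by gene was 0.25. Among those 9, Spry3 (0.04), Spred2 (0.07) and Spry4 (0.11) differed by less than 0.14, the median SD between features of a gene. Of the 18 secreted ligands, 6 had a higher ratio in the knockout and 12 a lower one, with medians of -0.07 and -0.16 and a median difference of -0.09. Among those 12, Fgf2 (-0.10), Fgf22 (-0.08), Fgf16 (-0.06) and Fgf23 (-0.01) differed by less than that SD. Among the 6, Fgf6 (0.14) lay at about that SD. Over all named genes 50.7% were higher in the knockout. The receptors had medians of 0.37 and 0.43.

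On single arrays, counts past 2-fold were small. In V6.5, Fgf5 was at least 2-fold higher and Fgf17 and Etv5 at least 2-fold lower, 1 and 2 of 38 against 2.52% and 1.59% of all named genes. In the knockout, Fgf5 and Fgf9 were higher and Fgf4, Fgf7, Fgf10 and Fgf17 lower, 2 and 4 of 38 against 2.92% and 1.65%. Fgf5 and Fgf17 were thus past 2-fold on both arrays.

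**Figure D2:**
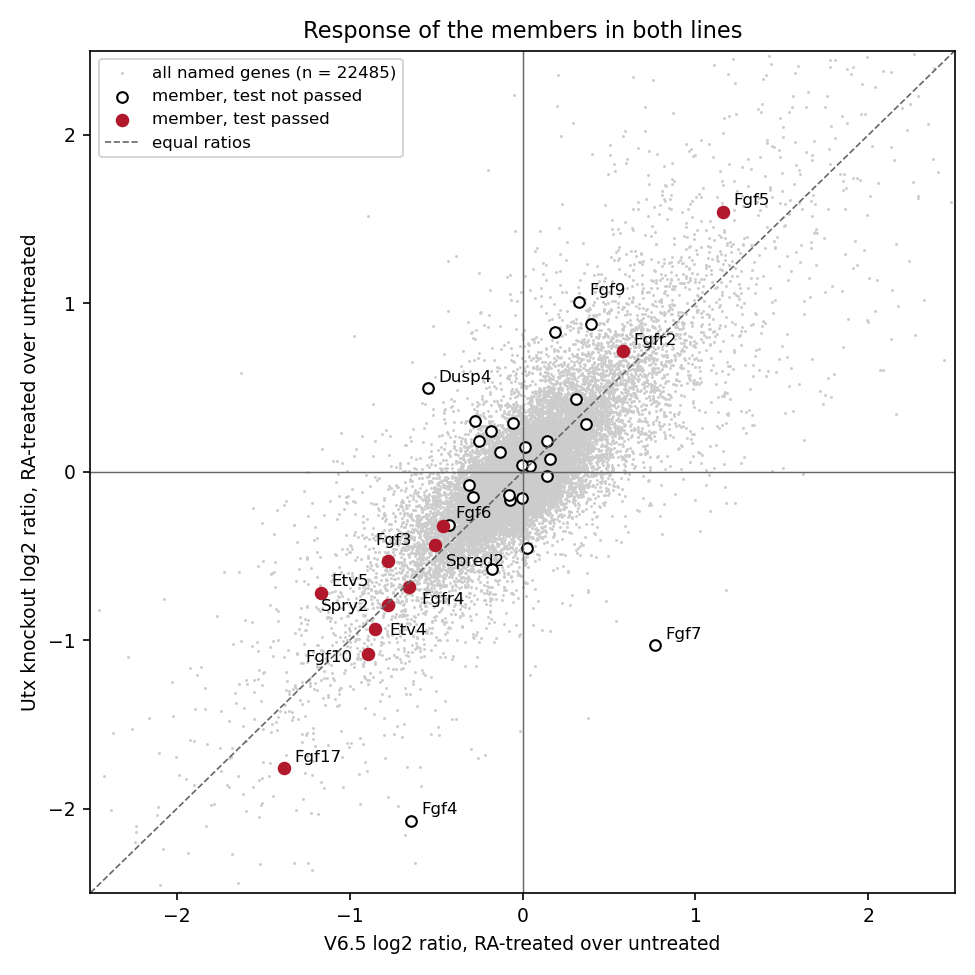
Response in V6.5 (horizontal axis) against the Utx knockout (vertical axis), each as the log2 ratio of treated over untreated cells on 1 array. Grey points are all 22485 named genes, of which 118 lie outside the axes, filled red points the FGF pathway genes that passed the shared test and open points those that did not, and the dashed line marks equal ratios. Fgf7 (0.77 and -1.03) and Fgf4 (-0.64 and -2.07) lie far below the line and Dusp4 (-0.55 and 0.50) above it.

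How firmly a value stands within its array can be read from genes with several features, which 17 of the 38 had. Across named genes with 2 to 9 features, the SD between features of a gene had a median of 0.14 on either array. The 11 features of Fgfr2 ranged from 0.40 to 0.67 in V6.5 and from 0.48 to 0.84 without Utx, all above 0. Of the 10 features of Fgf10, 9 lay between -0.86 and -1.12 in V6.5 and the other at -0.25. In the knockout the same feature had -0.23, beside -1.02 to -1.42 for the rest. Fgf10 thus rests on 9 features that lie together and 1 that lies apart. Whether the features of a gene are different probes or repeats of 1 probe was not checked, so features that lie together may not be independent.

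Other genes were less even. The 2 features of Fgfr3 had 0.75 and 0.04 in V6.5 and 1.47 and 0.29 in the knockout. The 2 features of Fgf1 had opposite signs, 0.27 and -0.27 in V6.5 and 0.20 and -0.51 in the knockout, so that its mean near 0 describes neither. Fgf8 ranged over its 3 features from -0.53 to -0.04 in V6.5 and from -0.42 to 0.22 without Utx. In all, 9 of the 17 genes had features of 1 sign on each array and 8 did not. The other 21 genes, Fgf3, Fgf4, Fgf5, Fgf17, Spry2, Spred2 and Etv5 among them, rested on 1 feature.

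**Figure D3:**
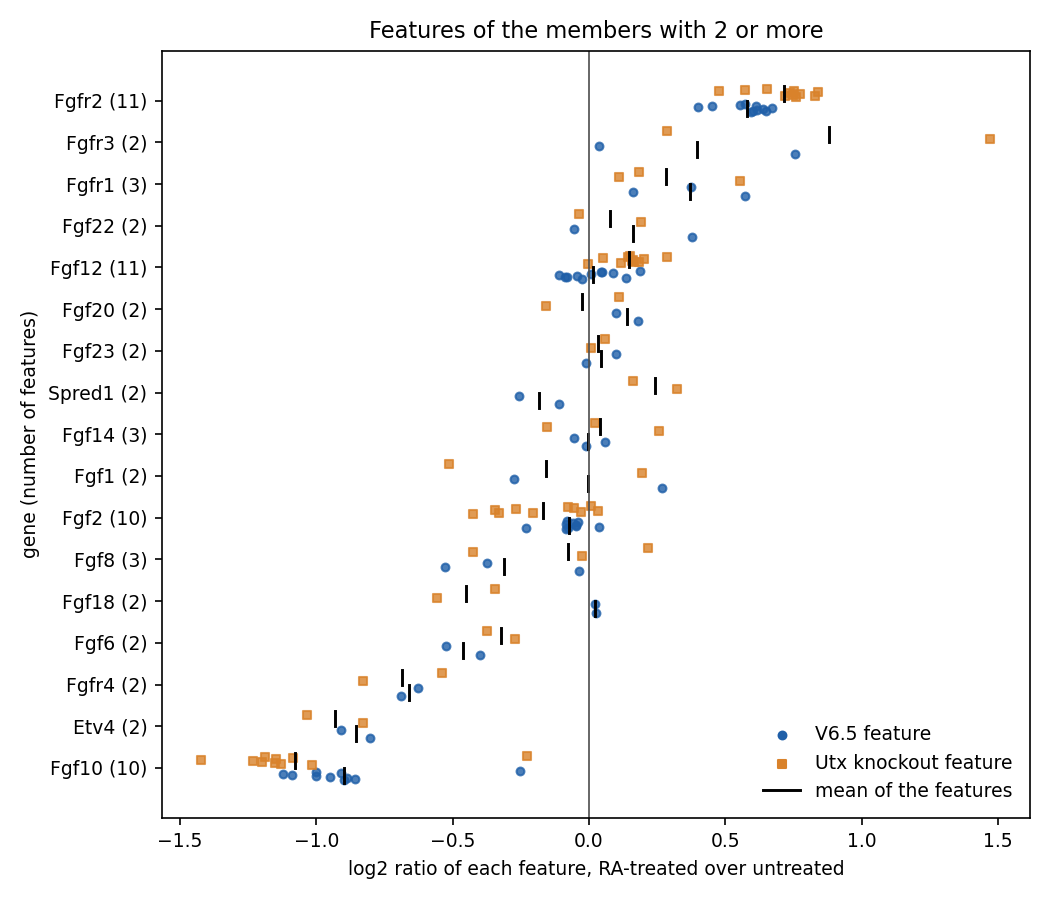
Log2 ratio of each array feature (horizontal axis) for the 17 FGF pathway genes with 2 or more features (vertical axis, number of features in brackets). Circles are V6.5, squares the Utx knockout and black bars the mean over the features. The 11 features of Fgfr2 all lie above 0, while 1 of the 10 features of Fgf10 lies apart from the rest on both arrays and the features of Fgf1 lie on both sides of 0.

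Of 16 measured genes of the cascade between receptor and ERK, 1 rose and 1 fell, beside 16.9% of all named genes that passed in either direction. The medians of the list were 0.11 and 0.04. The RAS activator Sos2 rose by 0.83 ± 0.07 (0.84 and 0.81), and Nras, a RAS GTPase, had -0.62 and -0.35 and fell (adjusted p = 0.0498 in limma). The 14 other measured genes of the list did not pass, and none of them reached 2-fold on either array. Another 6 genes of the list were not analysed here.

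Among 21 co-receptor and heparan sulfate genes, 4 rose and 4 fell, beside 8.93% and 7.93% of all named genes. The list medians were 0.12 and 0.12. Flrt3, a membrane partner of FGF receptors, had 0.67 and 0.65 and rose. The heparan sulfotransferases Hs6st1 (0.61 and 0.43) and Hs2st1 (0.44 and 0.37) and the FGF carrier Fgfbp3 (0.79 and 0.41) rose as well. The syndecans Sdc3 (-0.87 and -0.75) and Sdc1 (-0.58 and -0.49), the glypican Gpc3 (-0.50 and -0.75) and the heparan sulfate polymerase Ext1 (-0.53 and -0.39) fell. Other core proteins did not pass, among them Gpc1 (0.99 and 0.41), Sdc2 (0.35 and 0.04), Gpc6 (0.00 and 0.04) and Sdc4 (-0.999 and -0.43). Fgfbp1, another FGF carrier, had 0.51 and 1.94, and Gpc4 had -1.06 and -0.15, and neither passed.

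Of 20 other ERK feedback and target genes, 3 rose and 5 fell, beside 8.93% and 7.93% of all named genes. The list medians were -0.18 and 0.02. The phosphatase Dusp9, which restrains ERK in ES cells, had 1.70 in V6.5 and 1.23 without Utx and rose by 1.46 ± 0.14 (adjusted p = 0.0149 in limma). The EGF receptor inhibitor Errfi1 (0.54 and 0.92) and the ETS factor Etv1 (0.55 and 0.58) rose, the latter while its relatives Etv4 and Etv5 fell. Rasgrp1, a RAS activator, had -0.91 and -1.41 and fell. The immediate early gene Egr1 (-0.64 and -1.07), the AP-1 gene Fosl1 (-0.53 and -0.71), Ier3 (-0.65 and -0.72) and the phosphatase Dusp1 (-0.75 and -0.72) fell too. Past 2-fold on 1 array without passing were Dusp14 (1.13 and 0.35), Egr2 (-0.48 and -1.10), Fos (-0.26 and -1.70) and Phlda1 (-0.04 and 1.43).

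**Figure D4:**
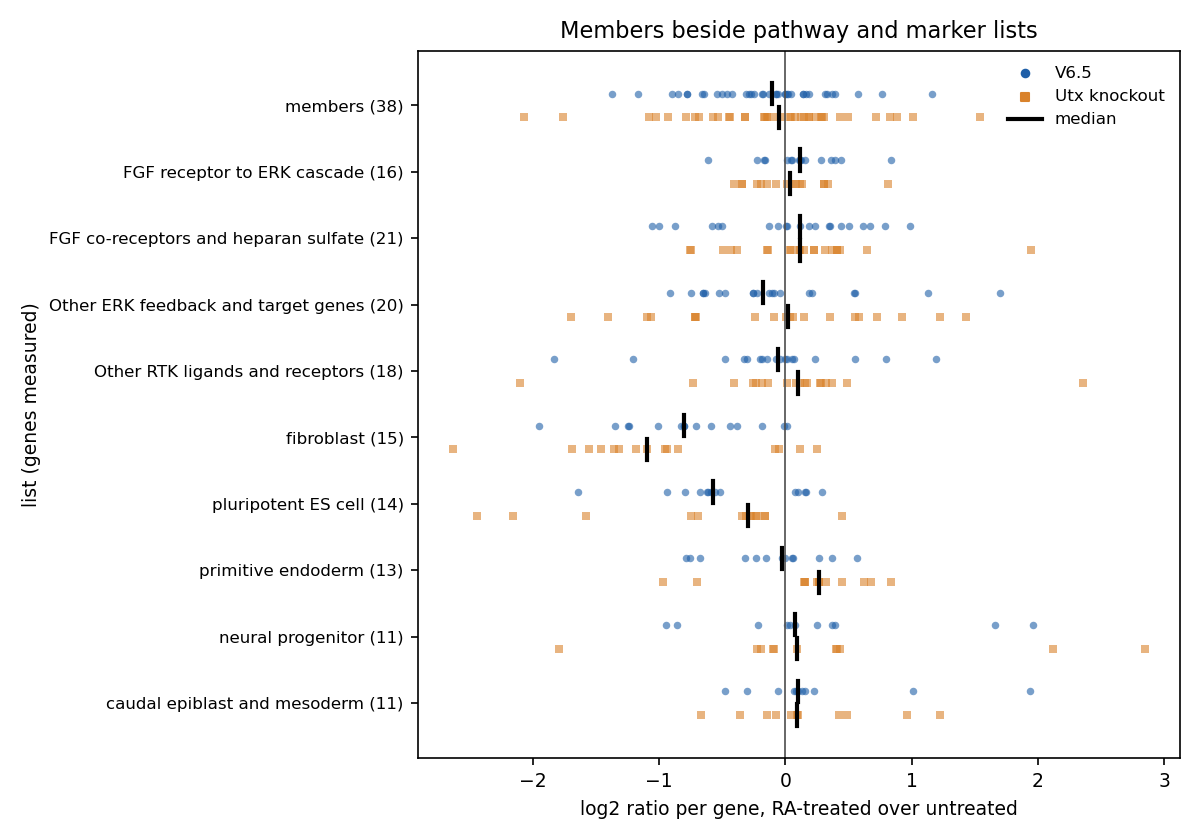
Log2 ratio per gene, RA-treated cells over untreated ones (horizontal axis), for the 38 FGF pathway genes, 4 pathway lists and 5 cell type marker lists (vertical axis, genes measured in brackets). Circles are V6.5, squares the Utx knockout and black bars the median of a list on that array. The medians of the 38 genes are -0.10 and -0.05, while those of the fibroblast markers are -0.80 and -1.10.

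The other marker lists give the setting of these values. Beside their counts stand 8.93% of all named genes that rose and 7.93% that fell in limma. Among the 10 fibroblast markers that fell, S100a4 (-1.95 and -2.63), Col1a2 (-1.25 and -1.69) and Col3a1 (-1.35 and -1.32) had the lowest means. Among pluripotency markers, Klf4 had -1.65 and -2.44, Tdgf1 -0.68 and -2.16 and Pou5f1 -0.94 and -1.58, with list medians of -0.57 and -0.30. Klf4 and Pou5f1 fell in limma, as did Tfcp2l1 (-0.59 and -0.75), while Tdgf1 did not pass (adjusted p = 0.0806). Dppa3 (0.17 and 0.44) was the 1 marker of this list above 0 on both arrays, without passing. Of 13 primitive endoderm markers, 0 rose and 2 fell in limma (3 and 2 at an unadjusted p under 0.05), Lama1 (-0.76 and -0.97) and Sparc (-0.79 and -0.70), with medians of -0.03 and 0.27, and Dab2 had 0.37 and 0.83 without passing. Of 11 neural progenitor markers, 3 rose and 1 fell in limma (4 and 3 at an unadjusted p under 0.05). The medians of this list were near 0, at 0.07 and 0.10. Irx3 (1.66 and 2.85) and Sox3 (1.96 and 2.12) had the highest means, and Olig2 (-0.95 and -1.79) fell. Of 11 caudal epiblast and mesoderm markers, 2 rose and 1 fell in limma (3 and 2 at an unadjusted p under 0.05). Their medians were 0.10 and 0.09, with Cdx1 at 1.94 and 1.23, Wnt8a at 1.01 and 0.96 and Tbx6 at -0.48 and -0.67. The part of any of these cell types in the ratios of the FGF pathway genes was not tested.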

How the data were processed

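RNA of untreated (Cy3) and RA-treated (Cy5) cells was hybridised to dual-colour Agilent arrays, 1 per line, per the labels' protocols. The authors' deposited values, 1 per array for each of 44397 features, were read as log2 ratios. The log base was inferred from their range, and the mean of each deposited column is 0. The submitters' processing notes name limma without version or role. How background was corrected and arrays were normalized is not given in the sources used here, and the signal over background is unknown. Platform annotation named 33026 features with 1 symbol and left 11371 unnamed. RefSeq (GRCm38.p6) gave the same symbol for the Entrez number of all 38 genes. Precision is limited by the number of arrays.

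Features of 1 gene were averaged. An intercept over both log2 ratios was fitted for 22485 genes with lmFit and eBayes (limma 3.58.1, R 4.3.3; 1 residual and 2.98 prior degrees of freedom), two-sided. P-values were adjusted over these genes by Benjamini-Hochberg, with 0.05 as the threshold. Differences between lines go into its residual, and SEs are moderated ones. The script was tested on simulated data. Other steps used Python 3.11.15, numpy 2.4.6, pandas 2.3.3 and matplotlib 3.10.9.

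The genes, lists and test were chosen with earlier results of these data known. Genes that passed, reached 2-fold on an array or differed by 1 (log2) between lines are given in full, the other FGF pathway genes by their ratios. Of the pathway lists, genes that passed or reached 2-fold are named, and of marker lists the 3 largest means, with Tfcp2l1 and Dppa3 added for pluripotency. The alternatives were median centring, the median of features, arrays scaled alike, robust eBayes, treat against 1.5-fold, a fit per feature, genes with features of 1 sign, and counting past 1.5-fold.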

Additional observations from a re-analysis of the deposited data

Results flagged for a closer look

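For 5 of the 38 genes the 2 lines had ratios on opposite sides of 0, each larger than 0.14, the median SD between features of a gene on its array. This was so for 13.2% of the FGF pathway genes and for 2.43% of all named genes. The difference between the lines was not tested for any of them, since each line has 1 array. The difference, taken as knockout minus V6.5, was -1.79 for Fgf7, 1.04 for Dusp4, 0.58 for Fgf21, 0.44 for Fgf13 and 0.43 for Spred1. Fgf7, Dusp4, Fgf21 and Fgf13 rested on 1 feature. The 2 features of Spred1 lay at -0.26 and -0.11 in V6.5 and at 0.16 and 0.32 in the knockout, so both had the same pair of signs.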

How the results depend on the processing

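Of the shared test's 2 genes called higher and 9 called lower, the same 11 passed with the median of features, with robust eBayes and among genes with features of 1 sign. The median of features could change the ratios of only Fgf10 and Fgfr2 among them, since the others had 1 or 2 features. All 11 had features of 1 sign, so that setting could leave none of them out. The 11 genes also passed with arrays scaled alike, where Fgfrl1 and Spry4 were added, and in the fit per feature, where Fgfr3 was added. In that fit a gene passed when a share of at least 0.5 of its features passed, all in 1 direction. Fgf6 and Fgfr3 each had 1 of 2 features pass. With median centring 5 passed as higher, Fgfr1, Fgfr3 and Fgfrl1 being added, and 8 as lower, since Fgf6 was lost. With treat against 1.5-fold, 0 passed as higher and 1 as lower, which follows from the stricter null. No direction of a gene that passed was reversed under these settings. Counted past 1.5-fold in place of 2-fold, 2 genes were higher and 8 lower in V6.5, 5 higher and 8 lower in the knockout, and the knockout was above V6.5 for 3 genes and below it for 2. The shares of all named genes past 1.5-fold were not counted, so these counts cannot be set against them. Leaving out an array leaves no residual degree of freedom, so no test without an array was possible, and the values of each line alone are those given above. Each ratio already pairs the treated and untreated RNA of a line, and no further pairing could be fitted with 1 array per line. Ratios without intensities set no limit for dim features, so a ratio near 0 may come from RNA that was not above background.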

Other observations

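Other receptor tyrosine kinase systems were covered by a list of 18 ligands and receptors, of which 2 rose and 2 fell in the shared test (limma). Over all named genes 8.93% rose and 7.93% fell. Ret, the receptor of the GDNF family of neurotrophic ligands, had log2 ratios of 1.19 in V6.5 and 2.36 without Utx and rose by 1.77 ± 0.30 (adjusted p = 0.0355 in limma). Erbb2, a receptor of the EGF family, had 0.55 and 0.49 and rose. Pdgfc, a ligand of the PDGF receptors, had -1.83 and -2.10 and fell by 1.97 ± 0.10 (adjusted p = 0.00758), and Pdgfb had -0.48 and -0.74 and fell. Pdgfa had -1.21 in V6.5 and -0.41 without Utx without passing. The list medians were -0.06 and 0.10.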
